A study of Vigna unguiculata with 30 samples.

Results

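Leaves from the top of the cowpea canopy were compared with leaves from its middle at the R1 stage, in 5 libraries of each position (top R1 and middle R1), which are 10 of the 30 libraries of the series. Members were taken from the position, stage and replicate number in the sample titles. Cowpea (Vigna unguiculata) is a grain legume, and all plants were of the genotype IT97K-499-35, with no treatment named, in the ground of a greenhouse with irrigation and fertilizer. They stood 3 inches apart in rows 30 inches apart, under supplemental light of 1000 µmol per m2 per second with 14 h of light and 10 h of dark. Top R1 and middle R1 leaves were sampled in week 5.5 from planting. Bottom R1 leaves of the same week, and top R3 and middle R3 leaves of week 6.5, with 5 libraries each, were used beside them. The replicates were labelled biological, but nothing says whether they came from separate plants, or whether top and middle leaves came from the same plants. The p-values therefore measure the spread between these samples, which may be in part technical.

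In a legume canopy the leaves at the top are the youngest and take most of the light, whereas the leaves further down are older and shaded and pass nitrogen on to growing organs as they age. In the staging used for soybean, R1 marks the start of flowering and R3 the start of pod growth. A leaf punch holds all cell types of the blade, so fewer cells of a type and less RNA per cell cannot be told apart. Genes are given by the gene model identifiers of the count table, which carry no product names, so no function is given for any of them. For the same reason the leaf label was not checked against marker genes. Where a gene model and a RefSeq gene overlapped by at least 0.5 of their joint span, the locus symbol of that RefSeq gene is given as a cross-reference.

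The 10 libraries held 10.5 to 13.7 M counts each. A count was found for a mean of 23281 gene models in top libraries (22888 to 23588, n = 5) and 22513 in middle libraries (22361 to 22715, n = 5), so the groups did not overlap. The difference passed a two-sided exact permutation test over all assignments of the 10 libraries (p = 0.00794, the smallest this design allows, 0.0317 after Benjamini-Hochberg adjustment over 4 library measures). After every library was thinned to 10490354 counts, a step chosen after the data were seen, 23120 ± 245 models had a count in top libraries and 22287 ± 140 in middle libraries (exact permutation p = 0.00794). Total count, scaling factor and the share of counts in the 10 most abundant genes (7.94% ± 1.04 in top and 8.76% ± 1.19 in middle leaves) did not pass that test (adjusted p = 0.492 for each, exact permutation test).

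Top and middle leaves lay apart on the first principal component of the 10 libraries, which held 45.1% of the variance. Top libraries 1 to 5 scored 67.4, 69.5, 47.9, 38.7 and -3.76, and middle libraries 1 to 5 scored -29.9, -36.1, -48.3, -44.7 and -60.6. Top replicate 5 lay between the other top libraries and the middle libraries. Its expression profile correlated across genes at a mean r of 0.921 with the other top libraries and 0.924 with the middle libraries. Each of the other 9 libraries was closer, on average, to its own group. The highest correlation between a top and a middle library, 0.937, was that of top replicate 5 with middle replicate 5, and the lowest, 0.838, was that of top replicate 2 with middle replicate 5. These correlations describe the libraries, since genes are not independent replicates. The plants, days or lanes behind replicate 5 are not given in the labels, and what set it apart was not tested.

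**Figure D1:**
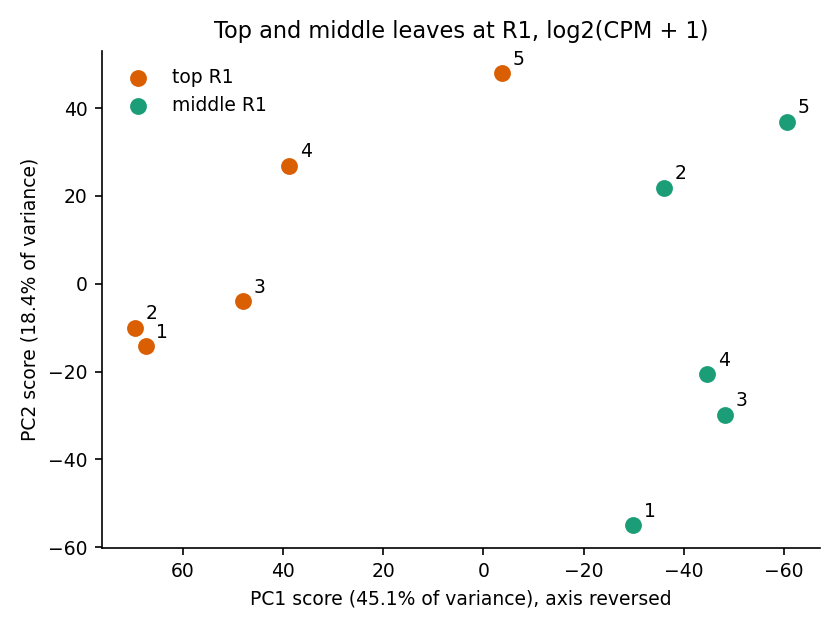
Scores of the 5 top R1 and 5 middle R1 libraries on the first and second principal components of log2(CPM + 1), with the replicate number beside each point and the PC1 axis reversed. Top replicates 1 to 4 score 38.7 to 69.5 on PC1 and the middle libraries -60.6 to -29.9, with top replicate 5 between them at -3.76.

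Of 20284 genes tested, 1379 (6.8%) were higher and 944 (4.65%) lower in top than in middle leaves, 2323 (11.5%) in all, by edgeR's quasi-likelihood test at a Benjamini-Hochberg adjusted p under 0.05. Among the genes that passed, the higher genes changed by more. At least a 2-fold difference was reached by 1052 higher genes (5.19% of those tested) and 456 lower genes (2.25%), which is 76.3% of the one list and 48.3% of the other. At least an 8-fold difference was reached by 334 higher and 83 lower genes, and a 64-fold difference by 32 and 5. The median log2 fold change was 1.79 for the higher genes and -0.96 for the lower genes, against 0.00 for all genes tested. The higher genes had low levels, with a median of 9.09 CPM (counts scaled to library size and TMM factor) in top leaves. Their median in middle leaves was 2.29 CPM, whereas all genes tested had a median of 14.7 CPM in both positions. The lower genes had medians of 14.7 CPM in top and 29.5 CPM in middle leaves. The size of change that can pass the test differs with the level. Its part in the larger changes of the higher genes was not tested. Of the counts of all genes tested, the higher genes took 2.46 to 4.8% in top libraries and 1.3 to 1.54% in middle libraries. The lower genes took 2.8 to 3.91% in top and 5.45 to 6.31% in middle libraries. With scaling by library size alone the split was 1495 higher and 649 lower.

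In 939 (68.1%) of the higher genes and 657 (69.6%) of the lower genes, every top library lay on 1 side of every middle library. Over all genes tested the top range lay above the middle range for 1531 (7.55%) and below it for 1278 (6.3%). Top replicate 5 was the lowest top library in 988 (71.6%) of the 1379 higher genes, and the nearest to the middle libraries in 465 (49.3%) of the 944 lower genes. It was at or below the highest middle library in 358 higher genes, against 17 to 55 for each of the other top libraries. Relative to the middle mean, the median log2 level of the higher genes was 1.91, 1.98, 1.64, 1.67 and 0.88 in top libraries 1 to 5. For the lower genes those medians were -1.10, -0.96, -0.98, -0.87 and -0.64. Replicate 5 was nearest to 0 in both lists. The side of 0 is largely fixed by the choice of the genes, which were called on these libraries.

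The number of calls depended on single libraries. Without top replicate 5, 3070 genes were called (1807 higher, 1263 lower). The count was 1213 without top replicate 1, 1149 without top replicate 2, 1198 without middle replicate 3, 1487 without middle replicate 4 and 1328 without middle replicate 5. Higher genes outnumbered lower genes in each of the 10 fits that left out 1 library.

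**Figure D2:**
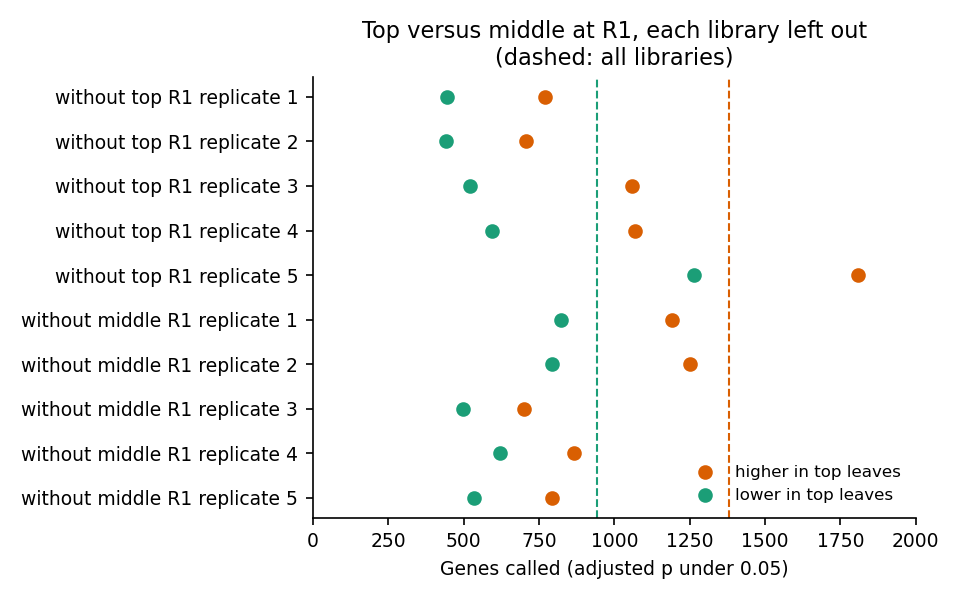
Number of genes higher (orange) and lower (green) in top than in middle R1 leaves at an adjusted p under 0.05, in the 10 fits that each leave out 1 library (rows), with dashed lines at the 1379 higher and 944 lower genes of the fit with all libraries. Leaving out top replicate 5 gives the most calls, 1807 higher and 1263 lower.

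Genes higher in top leaves were concentrated at low mean levels, and genes lower in top leaves at high ones. Between 0.5 and 1 CPM (mean over the 10 libraries), 124 of 1109 genes were higher (11.2%) and 17 lower (1.53%). From 1 to 5 CPM, 493 of 4014 were higher (12.3%) and 141 lower (3.51%). From 20 to 100 CPM the order was turned round, with 287 of 6907 higher (4.16%) and 400 lower (5.79%). Above 100 CPM, 42 of 1683 genes were higher (2.5%) and 104 lower (6.18%). Up to 0.5 CPM, 16 of 435 genes were higher and 20 lower. Below 1 CPM many genes passed the filter on low counts only by a higher level in some group, so those shares are a description. With the 2 groups fitted alone the shares above 100 CPM were 7.49% higher and 14% lower, and with scaling by library size alone 3.86% and 4.63%. The fit of the 2 groups alone called more genes in all, 2061 higher and 1649 lower against 1379 and 944. Counting error and the size of change that can pass the test both differ with the level, and their part in this pattern was not tested.

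**Figure D3:**
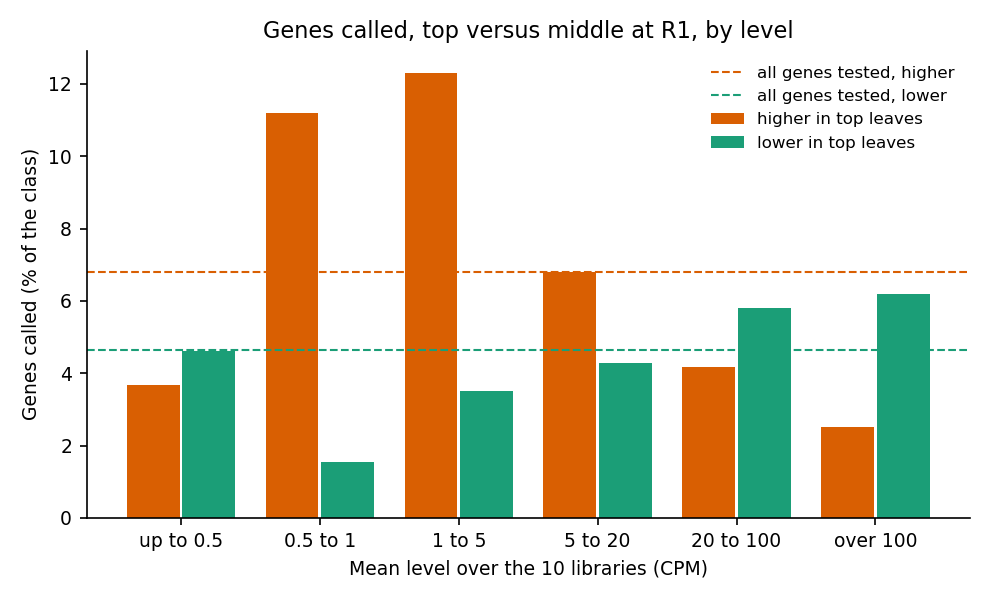
Percent of the genes in each class of mean level over the 10 libraries (CPM) that were called higher (orange) or lower (green) in top than in middle R1 leaves, with dashed lines at 6.8% and 4.65% for all genes tested. The higher share peaks at 12.3% from 1 to 5 CPM and the lower share at 6.18% above 100 CPM.

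The largest increase among genes of at least 5 CPM with ranges apart was that of Vigun03g140800, a gene model with 1 exon block (exons merged over isoforms) at 14048370 to 14050400 on the plus strand of chromosome 3, placed on LOC114177341. It had 186, 324, 73.7, 147 and 12.7 CPM in top libraries 1 to 5, against 0.15, 0, 0.158, 0 and 0 CPM in middle libraries. Its 8689 counts over the top libraries thus stood against 4 over the middle libraries, and bottom R1 libraries had none. Top over middle gave a log2 fold change of 10.95 ± 1.76 (SE), with an adjusted p of 0.0025 by edgeR's quasi-likelihood test. At R3 the 5 top libraries spread from 0.759 to 487 CPM, and the middle libraries reached at most 1.78 CPM. The R3 log2 fold change was 7.94 ± 1.43 (edgeR, adjusted p = 0.0093).

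Vigun01g038000, with 6 exon blocks at 5058397 to 5060317 on the minus strand of chromosome 1 (LOC114185503), was next. Its levels were 24.6, 115, 5.4, 41.2 and 3.31 CPM in top libraries 1 to 5, against 0, 0.191, 0, 0 and 0.171 CPM in middle libraries. The lowest top library, replicate 5, was still above every middle library. The fitted log2 fold change was 8.95 ± 1.61 (edgeR, adjusted p = 0.0034), 7.93 without top replicate 2 and 9.57 without middle replicate 2. At R3 the gene had 50.2 and 34.8 CPM in top replicates 1 and 2, 0.386, 0 and 0.177 CPM in top replicates 3 to 5, and at most 0.297 CPM in middle libraries. Only a pair of the R3 top libraries was therefore far above the middle range.

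The largest decrease by the same rule was that of Vigun06g202500, with 4 exon blocks at 31717284 to 31720412 on the minus strand of chromosome 6 (LOC114187882). It had 3.05, 0, 0.3, 2.01 and 1.43 CPM in top libraries, against 105, 3.34, 18, 80.2 and 17.3 CPM in middle libraries. The highest top library was only just under middle replicate 2, and the middle libraries themselves were spread widely. This gave a log2 fold change of -5.03 ± 1.00 (edgeR, adjusted p = 0.0058), and -4.44 without middle replicate 1. Bottom R1 libraries had 19.5 to 135 CPM. At R3 the means were 10.4 ± 8.63 CPM in top and 11.2 ± 4.52 CPM in middle leaves (SD, n = 5 each), and the log2 fold change of -0.11 ± 0.83 did not pass (edgeR, adjusted p = 0.95).

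Vigun03g026200, with 3 exon blocks at 1962436 to 1965008 on the minus strand of chromosome 3, had 3.57, 0.471, 0.6, 1.26 and 2.15 CPM in top libraries. Middle libraries had 31.1, 27.3, 29, 31.3 and 56.3 CPM. The groups were well apart, and bottom R1 libraries had 76.6 to 201 CPM (middle over bottom, edgeR adjusted p = 0.062). On the log2 scale the fold change was -4.44 ± 0.66 at R1 (edgeR, adjusted p = 0.001) and -2.87 ± 0.61 at R3 (adjusted p = 0.014). The R1 calls of these 4 genes held under every one of the 17 alternatives tried.

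Among the most abundant called genes, Vigun01g115300 was higher in top leaves. It has 5 exon blocks at 29196393 to 29203487 on the plus strand of chromosome 1 (LOC114173568). Its levels were 1894, 3406, 1994, 1345 and 1291 CPM in top libraries, against 657, 1303, 716, 590 and 564 CPM in middle libraries. The ranges touched, since top replicate 5 was just below middle replicate 2. Its log2 fold change was 1.37 ± 0.36 (edgeR, adjusted p = 0.018), and without top replicate 2 the call was lost (adjusted p = 0.066). It was also the most abundant gene that was higher at both stages, with 960 to 3702 CPM in top R3 and 361 to 1143 CPM in middle R3 leaves (log2 fold change 1.39 ± 0.36, edgeR adjusted p = 0.026). Bottom R1 leaves had 188 to 414 CPM, below every middle R1 library. Middle over bottom gave a log2 fold change of 1.39 (edgeR, adjusted p = 0.021).

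Vigun10g095300, with 2 exon blocks at 28097144 to 28098369 on the minus strand of chromosome 10 (LOC114165055), had 803, 1099, 755, 569 and 540 CPM in top libraries. Middle libraries had 220, 296, 220, 216 and 308 CPM, all below the lowest top library. Top over middle gave a log2 fold change of 1.58 ± 0.43 at R1 (edgeR, adjusted p = 0.02) and 1.48 ± 0.43 at R3 (adjusted p = 0.037). Bottom R1 libraries were spread from 177 to 1118 CPM, over both other ranges. The R1 call was lost without top replicate 2 (adjusted p = 0.058) and without middle replicate 3 (adjusted p = 0.051).

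The most abundant genes that were lower in top leaves changed by under 2-fold. Vigun09g013900, with 5 exon blocks at 1023138 to 1025264 on the plus strand of chromosome 9 (LOC114163087), had 865, 715, 647, 840 and 917 CPM in top libraries, against 1880, 1039, 1513, 1345 and 1138 CPM in middle libraries. Its levels followed the canopy, with 1930 to 2783 CPM in bottom leaves. The fitted log2 fold change was -0.80 ± 0.21 (edgeR, adjusted p = 0.017) for top over middle and -0.74 (adjusted p = 0.029) for middle over bottom. Vigun07g244400, with 3 exon blocks at 36557490 to 36559718 on the minus strand of chromosome 7 (LOC114192033), had 832, 856, 686, 713 and 1016 CPM in top libraries and 1033, 1444, 1238, 1310 and 1173 CPM in middle libraries. Its ranges barely stood apart, and its log2 fold change of -0.60 ± 0.19 (edgeR, adjusted p = 0.046) lay close to the threshold. That call was lost under 12 of the 17 alternatives, among them those without top replicates 1 to 4 and without middle replicates 2 to 5 (adjusted p up to 0.11).

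**Figure D4:**
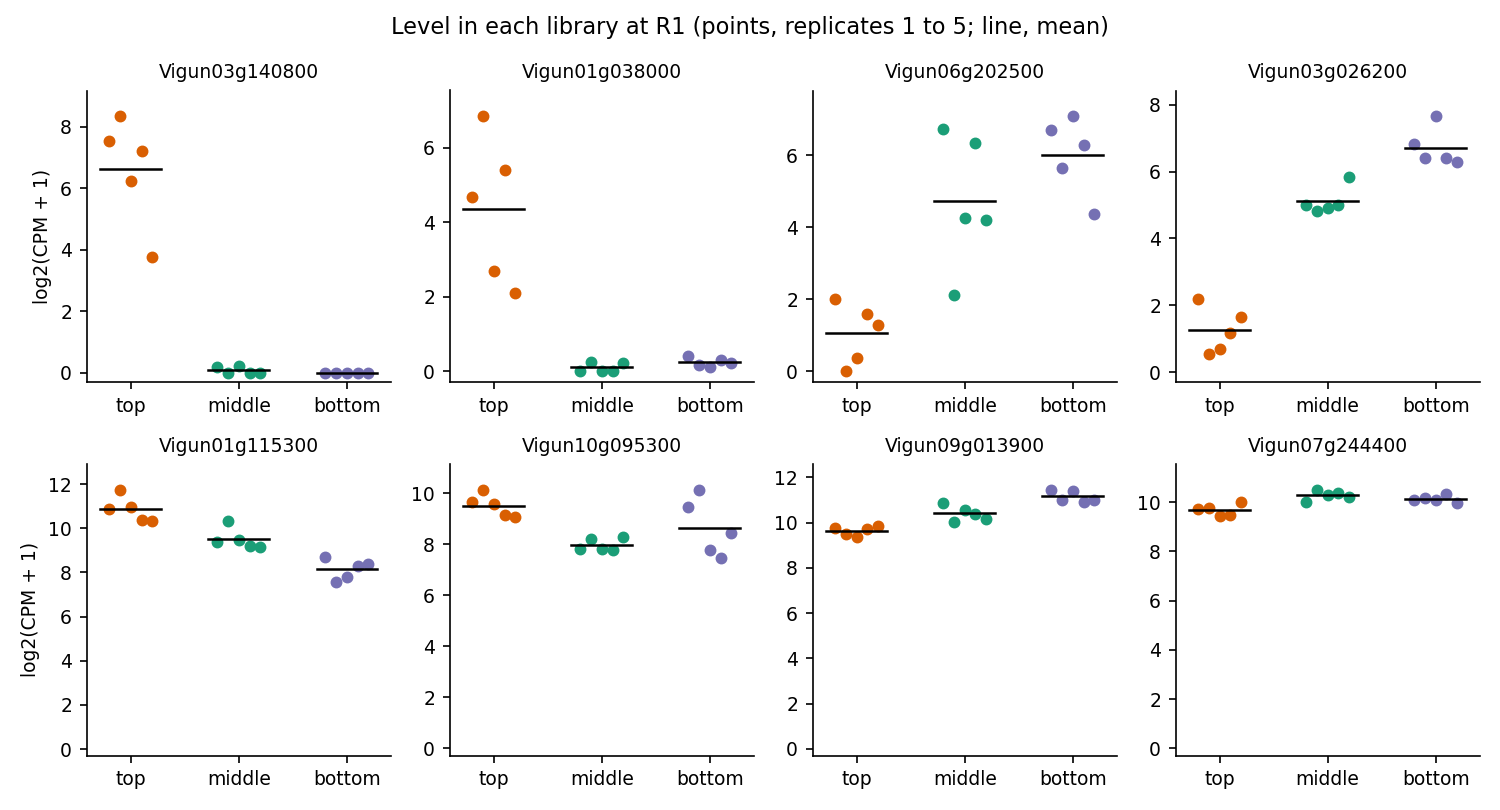
Levels at R1 as log2(CPM + 1), with a point for each top, middle and bottom library and a line at the mean. The upper row holds the 2 higher and 2 lower genes with the largest changes (at least 5 CPM, ranges apart). The lower row holds the 2 most abundant called genes of each direction. Models whose exons overlap another were passed over. Vigun03g140800 and Vigun01g038000 are near 0 in middle and bottom leaves, and Vigun06g202500 and Vigun03g026200 are low in every top library.

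Among called genes of at least 5 CPM, those with the most exons changed by under 3-fold. Vigun06g233400, with 37 exon blocks at 33930354 to 33949752 on the plus strand of chromosome 6 (LOC114187448), had 93.8, 96.2, 93.9, 97.1 and 89.3 CPM in top libraries, against 68.3, 65.3, 62.2, 64.4 and 70.3 CPM in middle libraries. Libraries within each group differed little, and the log2 fold change of 0.51 ± 0.16 passed (edgeR, adjusted p = 0.038). That call was lost under 11 alternatives, among them 9 of the 10 that leave out 1 library (all but top replicate 5, adjusted p up to 0.084). Vigun09g047500, also with 37 exon blocks, at 4527154 to 4553583 on the minus strand of chromosome 9 (LOC114163068), had 84, 85.9, 71.8, 57.5 and 45.8 CPM in top libraries and 31.2, 36.4, 28.3, 30.7 and 32.8 CPM in middle libraries. Top libraries were all above the middle ones, and bottom leaves had 8.91 to 30.5 CPM. Its log2 fold change was 1.11 ± 0.25 at R1 (edgeR, adjusted p = 0.0095) and 0.87 ± 0.25 at R3 (adjusted p = 0.037).

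Vigun05g166500, with 49 exon blocks at 27685102 to 27730010 on the plus strand of chromosome 5 (LOC114184829), had 190, 443, 407, 349 and 346 CPM in top libraries. Middle libraries had 465, 961, 878, 864 and 699 CPM, and bottom libraries 935 to 2672 CPM. Replicate 1 was the lowest library of both the top and the middle group, and the groups were apart by a small gap. This gave a log2 fold change of -1.16 ± 0.36 (edgeR, adjusted p = 0.035), and the call was lost under 8 alternatives, those without top replicates 1 to 4 and without middle replicates 2 to 5 (adjusted p up to 0.095). Vigun11g149500, with 25 exon blocks at 35959955 to 35971669 on the plus strand of chromosome 11 (LOC114169878), had 61.7, 158, 107, 99 and 158 CPM in top libraries, against 290, 343, 331, 193 and 268 CPM in middle libraries. It was lower in every top library, with a log2 fold change of -1.29 ± 0.34 (edgeR, adjusted p = 0.018), and without top replicate 1 the adjusted p was 0.053.

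Among called genes with 1 exon block, the most abundant were Vigun06g219300 and Vigun11g221300 of the higher genes. Vigun06g219300 is a short model of 336 bases at 32985796 to 32986131 on the plus strand of chromosome 6 (LOC114187541). It had 1004, 828, 566, 553 and 129 CPM in top libraries, against 66.6, 26.7, 19.4, 133 and 6.83 CPM in middle libraries. Top replicate 5 lay just under middle replicate 4, which was the highest middle library. On the log2 scale the fold change was 3.61 ± 1.13 (edgeR, adjusted p = 0.039), and 4.34 without middle replicate 4. The call was lost under 8 alternatives, those without top replicates 1 to 4 and without middle replicates 1, 2, 3 and 5 (adjusted p up to 0.091). At R3 it had 668, 1240, 87.4, 92.6 and 75.5 CPM in top libraries and 0.208 to 32.3 CPM in middle libraries (log2 fold change 5.11 ± 1.22, edgeR adjusted p = 0.02). Bottom R1 libraries had under 1 CPM except for replicate 4, with 23.9 CPM.

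Vigun11g221300, at 41328602 to 41329492 on the minus strand of chromosome 11 (LOC114168640), had 474, 396, 465, 281 and 327 CPM in top libraries. Middle libraries had 176, 223, 211, 42.8 and 55.3 CPM, with replicates 4 and 5 the lowest. Its log2 fold change was 1.46 ± 0.45 (edgeR, adjusted p = 0.035), and the call was lost without top replicates 1, 2 or 3 and without middle replicates 4 or 5 (adjusted p up to 0.087). Of the lower genes, Vigun09g093700, at 13570086 to 13570638 on the plus strand of chromosome 9, lies on LOC114162302, which RefSeq lists as a long non-coding RNA. It had 132, 218, 237, 173 and 422 CPM in top libraries, against 478, 801, 794, 474 and 657 CPM in middle libraries, and 495 to 942 CPM in bottom leaves. Top replicate 5 was the nearest to the middle libraries. The log2 fold change was -1.44 ± 0.37 for top over middle (edgeR, adjusted p = 0.016) and -0.08 for middle over bottom (adjusted p = 0.92).

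Vigun03g415300 was both the next 1-block gene among those lower and the most abundant gene that was lower at both stages. It lies at 62225299 to 62225865 on the plus strand of chromosome 3 (LOC114176616). Its levels were 187, 243, 264, 239 and 318 CPM in top R1 libraries, against 392, 484, 470, 334 and 398 CPM in middle R1 libraries. The fitted log2 fold change was -0.73 ± 0.20 at R1 (edgeR, adjusted p = 0.022) and -0.69 ± 0.20 at R3 (adjusted p = 0.041). The R1 call was lost without top replicate 1 (adjusted p = 0.067), top replicate 2 (0.053) or middle replicate 3 (0.056). Vigun03g020100, with 9 exon blocks at 1465191 to 1470074 on the minus strand of chromosome 3 (LOC114179363), was the next gene lower at both stages. It had 87.5, 93.4, 131, 199 and 280 CPM in top R1 libraries and 308, 421, 441, 421 and 493 CPM in middle R1 libraries. At R3 its means were 163 ± 85.3 CPM in top and 395 ± 53.9 CPM in middle leaves (SD, n = 5 each). This gave a log2 fold change of -1.40 ± 0.36 at R1 (edgeR, adjusted p = 0.016) and -1.28 ± 0.35 at R3 (adjusted p = 0.033).

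Some called genes had no count at all in 1 position. Of the 18 tested genes without a count in the 5 middle libraries, 6 were higher in top leaves, and 4 of those had counts in every top library. Vigun08g218100 had 3.75, 2.82, 1.42, 1.86 and 0.448 CPM in top libraries. Against a floor of 3 counts over the 5 middle libraries, or 0.0494 CPM, it was at least 41.1-fold higher in top leaves (edgeR, adjusted p = 0.011). By the same floor Vigun08g114500 was at least 26.3-fold higher, Vigun07g035900 at least 21.6-fold and Vigun09g274500 at least 18.5-fold, with mean levels of 1.35, 1.08 and 0.93 CPM in top leaves. All 4 had counts in top R3 leaves, 62 to 146 over the 5 libraries, and at most 5 in middle R3 leaves. In the other direction, 8 tested genes had no count in the 5 top libraries, and 1 of them, Vigun03g186700, was lower in top leaves. It had 0.15, 3.15, 1.82, 0.0795 and 1.28 CPM in the middle libraries, so it was at least 24.4-fold lower in top leaves (edgeR, adjusted p = 0.017). At R3 this gene had 128 counts over the 5 top libraries, found in 3 of them and up to 87 in 1 library. Over the 5 middle R3 libraries it had 31 counts, found in 4 of them and up to 13 in 1 library. DESeq2 called its interaction of position and stage (adjusted p = 0.023) while edgeR did not (adjusted p = 1). These 5 genes were singled out after their values were seen, and the floors cover counting error only. A gene without a count in a group passed the filter on low counts only through other groups, so these adjusted p-values are a description.

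Called genes of 1 direction lay next to each other in 18 runs of at least 3 neighbouring tested genes, 13 of higher and 5 of lower genes. Over all genes tested 6.8% were higher and 4.65% lower, and how many runs calls placed at random would give was not tested. In 4 runs, all of higher genes, every member changed at least 4-fold. These were also picked after their values were seen. On chromosome 1, the 4 genes Vigun01g006600, Vigun01g006800, Vigun01g006900 and Vigun01g007000 lay between 805444 and 840277. Their levels were 0.358 to 3.66 CPM in top libraries and 0 to 0.477 CPM in middle libraries, with log2 fold changes of 3.50 to 5.29. At R3 their log2 fold changes were 2.90 to 3.47, and Vigun01g006900 was called (edgeR, adjusted p = 0.039) while the other 3 were not (adjusted p = 0.052, 0.059 and 0.082). On chromosome 7, Vigun07g176300, Vigun07g176400 and Vigun07g176500 lay between 29147811 and 29176072. Each has 7 exon blocks and 2525 to 2576 exonic bases, and their levels were 0.895 to 11.9 CPM in top libraries and 0 to 1.05 CPM in middle libraries. All 3 were also called at R3, with log2 fold changes of 5.86, 4.93 and 3.75 (edgeR, adjusted p = 0.015, 0.015 and 0.03).

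On chromosome 10, Vigun10g135850, Vigun10g136065 and Vigun10g136550 lay between 34777521 and 35163542, with 14 or 15 exon blocks each and log2 fold changes of 2.01 to 3.00. At R3 Vigun10g135850 and Vigun10g136550 were called (edgeR, adjusted p = 0.021 and 0.035) and Vigun10g136065 was not (adjusted p = 0.19). On chromosome 11, Vigun11g031000, Vigun11g031300 and Vigun11g031400 lay between 4019600 and 4107787, with 2 exon blocks each. Vigun11g031000 spread from 0.0895 to 131 CPM over the top libraries and was at most 0.0955 CPM in middle libraries. Vigun11g031400 was more even, with 13.3 to 44.7 CPM in top and 0.171 to 7.64 CPM in middle libraries (log2 fold change 2.84 ± 0.75, edgeR adjusted p = 0.018). All 3 genes of the chromosome 11 run were called at R3 (adjusted p = 0.027, 0.019 and 0.019). Neighbours of like size and exon number may be near-identical copies, whose counts are uncertain, since no source used here states how reads shared by copies were counted.

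Over all genes tested 6.8% were higher and 4.65% lower in top leaves, and every chromosome held genes called in both directions, in like shares. Between 6.26% (chromosome 2) and 8% (chromosome 11) of the tested genes of a chromosome were higher in top leaves, and 4.17 to 5.52% were lower. Of 221 tested models on unplaced contigs, 3 were higher (1.36%) and 1 was lower (0.452%). Among models with 1 exon block the shares were nearly equal, with 161 of 2675 higher (6.02%) and 165 lower (6.17%). With 2 exon blocks, 228 of 2942 were higher (7.75%) and 135 lower (4.59%). With 30 or more exon blocks, 9 of 112 models were higher (8.04%) and 1 was lower (0.893%). Which of the 1-block shares was the larger changed with the processing. They were 6.32% higher and 5.91% lower with size factors of DESeq2, and 6.54% and 5.98% with the replicate block. By DESeq2 they were 8.19% and 8.64%, and with no filter beyond 1 count 5.2% and 5.46%. With top and middle R1 libraries fitted alone, 9.71% of the 1-block models were higher and 9.3% lower. That fit called more genes in all, 2061 higher and 1649 lower against 1379 and 944, so its shares are not comparable with those above. By exonic length, the 4 classes with equal numbers of genes held 5.97 to 7.2% higher and 4.38 to 4.95% lower genes.

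Bottom leaves of the same week place both lists along the canopy. Top over bottom, which uses the same top libraries, gave 4506 higher (22.2%) and 4225 lower (20.8%) genes. Middle over bottom, which uses the same middle libraries, gave 1015 higher (5%) and 566 lower (2.79%). Scaling by library size alone moved the median of all genes from 0.01 to -0.14 in the one and from -0.02 to -0.21 in the other, and the splits to 3622 higher with 5448 lower, and 789 higher with 1861 lower. The genes higher in top than in middle leaves had a median log2 fold change of 2.29 for top over bottom and 0.45 for middle over bottom, with median levels of 9.09, 2.29 and 1.51 CPM in top, middle and bottom leaves. The genes lower in top leaves had medians of -1.17 for top over bottom and -0.23 for middle over bottom, with levels of 14.7, 29.5 and 35.9 CPM. Because the comparisons share libraries, these medians are a description.

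The R3 libraries, a week later, share no library with the R1 comparison, though all groups share 1 estimate of the spread. Top over middle at R3 gave 971 higher (4.79%) and 317 lower (1.56%) genes by edgeR's quasi-likelihood test at an adjusted p under 0.05. These R3 calls rest on the spread estimated over all 6 groups, since the R3 top and middle libraries fitted alone gave 33 calls (28 higher, 5 lower). Both stages called 621 genes higher, 45% of the R1 list and 64% of the R3 list. Lower at both stages were 121 genes, 12.8% of the R1 list and 38.2% of the R3 list. No gene was called in opposite directions. Of the 1379 genes higher at R1, 1353 (98.1%) had an R3 log2 fold change above 0, with a median of 1.31. Of the 944 lower genes, 901 (95.4%) were below 0, with a median of -0.45. Over all genes tested 49.7% were above 0 and 50.3% below.

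The R3 top libraries were uneven. Relative to the middle R3 mean, the median log2 level of the genes higher at R1 was 1.63 and 2.17 in top R3 replicates 1 and 2, and 0.46, 0.44 and 0.41 in replicates 3 to 5. Middle R3 libraries lay between -0.22 and 0.22. Top R3 replicates 3, 4 and 5 were at or below the highest middle R3 library for 56.2 to 60.3% of those genes. For replicates 1 and 2 these shares were 11.4% and 8.05%. For the genes lower at R1, the medians of top R3 replicates 1 to 5 were -0.60, -1.14, -0.23, -0.30 and -0.26. All 5 top R3 libraries lay on the side of the R1 call in both lists. The R3 count of 1288 calls was 529 without top R3 replicate 1, 83 without top R3 replicate 2 and 1957 without top R3 replicate 5. Without middle R3 replicates 1 to 5 it was 2000, 794, 681, 98 and 276. Library size alone as the scaling gave 827 higher and 718 lower genes at R3 and moved their overall median to -0.13.

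**Figure D5:**
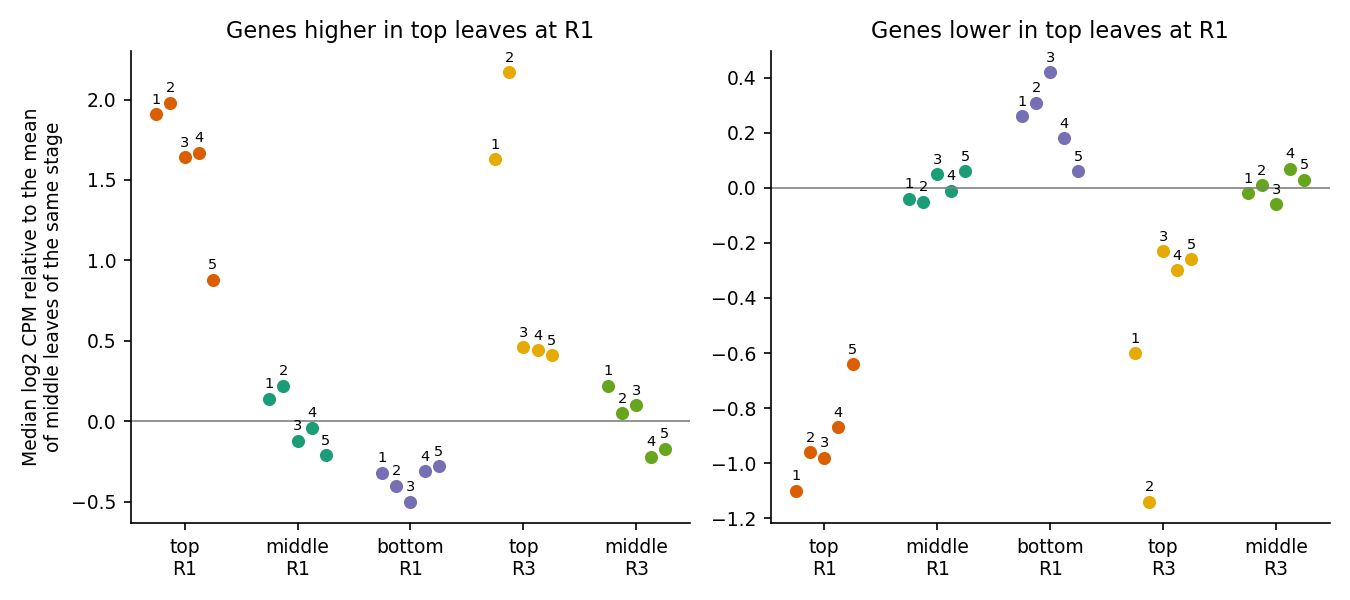
Median log2 CPM of the 1379 genes higher (left) and the 944 genes lower (right) in top than in middle R1 leaves, relative to the mean of the middle libraries of the same stage, for each library of 5 groups, with the replicate number beside each point. Top R1 replicate 5 (0.88) and top R3 replicates 3 to 5 (0.41 to 0.46) lie nearest to the middle libraries in the left panel.

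The difference between the stages was tested as an interaction of position and stage. No gene passed in edgeR's quasi-likelihood test (0%, smallest adjusted p = 1), and 846 genes (4.17%) had an unadjusted p under 0.05. DESeq2 called 4 genes, Vigun03g186700, Vigun03g314100, Vigun04g017400 and Vigun11g129000, which were picked by that result. All have 1 exon block, and in each of them at least 1 group was near 0. Vigun11g129000 had no count in top R1 leaves, counts in 2 of 5 middle R1 libraries (up to 124), in 2 of 5 top R3 libraries (up to 366) and in 4 of 5 middle R3 libraries (up to 30). Vigun04g017400 had counts in 4 top R1 libraries (up to 3699), in 3 middle R1 libraries (up to 5), in 2 top R3 libraries (up to 2425) and in no middle R3 library. Vigun03g314100 had up to 2 counts in 2 top R1 libraries and up to 69 in the 5 middle R1 libraries, and at R3 up to 250 in the 5 top and up to 31 in the 5 middle libraries. By edgeR's test, no gene called at R1 and not at R3 was shown to differ between the stages.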

How the data were processed

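Leaf RNA was measured by sequencing of polyA RNA, with RNA from a MagMAX kit and libraries from a Kapa HyperPrep mRNA kit, per the labels' protocols. The authors deposited raw counts per gene model (annotation version 1.2), the only measurements used here. The submitters' processing notes name HISAT2, featureCounts and DESeq2, with no versions or roles. Genome build, strand setting and treatment of reads shared between genes were not given in the sources used here. Columns were tied to samples by the sample descriptions, and 0 value columns were left over.

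Genes were filtered with filterByExpr by group (20284 of 31948 models kept), scaled by TMM and fitted with edgeR 4.0.16 in R 4.3.3 (quasi-likelihood, all 6 groups, 24 residual degrees of freedom). Calls were made at an adjusted p (Benjamini-Hochberg) under 0.05. The SE of a log2 fold change was its size over the square root of F. CPM divides counts by library size times TMM factor. Library measures were compared by two-sided exact permutation tests. DESeq2 1.42.0, other scalings, all genes with at least 1 count, a replicate block, the 2 groups alone, a 2-fold minimum and leaving out each library were alternatives. Thinning, and classes and R3 shares without top R1 replicate 5, were added after seeing the data.

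The 20 pairs of libraries within the top R1 and middle R1 groups had a chi-square per degree of freedom of 25.6 to 83.9 (genes with 20 or more counts summed over a pair), far over sampling noise, so no library was treated as a duplicate. By position, 24519 models (80.5% of those on chromosomes) matched a RefSeq gene of assembly ASM411807v2 at a Jaccard overlap of at least 0.5, and 0 matched by identifier. Coordinates are those of the count table, 1-based. Because identifiers could not be tied to product names, the 53 gene lists and the cell type markers, which rest on such names, were not analysed here. Named genes are therefore at most 2 higher and 2 lower for each of 6 classes: the largest change (mean of at least 5 CPM, ranges apart), the highest mean CPM among called genes, the most exons (at least 5 CPM), the highest mean CPM among 1-exon genes and among genes called in the same direction at both stages, and the largest change among genes with an interaction, which named 0. Models whose exons overlap another (797 tested) were passed over. Comparisons, lists and rules were chosen with earlier results of these data known.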

Additional observations from a re-analysis of the deposited data

Results flagged for a closer look

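Of 48 groups of 5 libraries examined for a value far from the others, 2 passed Dixon's critical value of 0.71, and chance passes about 1 in 20 such groups. Vigun03g026200, lower in top leaves, had 56.3 CPM in middle R1 replicate 5, whose gap to the next library was 0.861 of the range of the middle R1 group. The other middle R1 libraries had 27.3 to 31.3 CPM. Vigun01g115300, higher in top leaves, had 1303 CPM in middle R1 replicate 2, with a gap of 0.794 of the range, and 564 to 716 CPM in the other middle R1 libraries. That library overlapped top R1 replicate 5, at 1291 CPM.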

How the results depend on the processing

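For top over middle at R1, against 2323 calls, the 2 groups alone gave 3710, the 2 groups alone with the replicate block 4342, and a 2-fold minimum 1508, with 1149 to 3070 when 1 library was left out. DESeq2 gave 3447, size factors of DESeq2 2332, library size alone 2144 and no filter beyond 1 count 2126. At R3, against 1288 calls, DESeq2 gave 2391, the 2 groups alone 33, the 2 groups alone with the replicate block 7, and leaving out 1 library 83 to 2000. The interaction had 4 calls by DESeq2. A 2-fold minimum left 4601 of 8731 calls for top over bottom. Middle over bottom had 1581 calls, 2650 with library size alone, 2537 by DESeq2 and 828 at a 2-fold minimum. With the replicate block in the fit of all groups, 2554 genes were called at R1 (2162 of them also without it), and 1 named gene, Vigun07g244400, lost its call (adjusted p = 0.055). The deviations of same-numbered top and middle libraries correlated at 0.33, 0.13, 0.26, -0.02 and 0.47, over 0.1 in 4 of 5 pairs, and 4 of 5 top libraries correlated best with their own number. Since 1 pair stayed under that limit and the labels do not say what a number marks, the main fit has no block. Whether same-numbered libraries share a source was not tested. Of the 17 named genes 8 kept their call under all 17 alternatives, 9 lost it under at least 1, and 0 changed sign. The 2-fold minimum is not among these 17 alternatives, and the cause of the lost calls was not tested. Without top R1 replicate 5, 38.6% of the higher and 10.5% of the lower genes at R1 were called at R3. Depth sets a floor of 3 counts over a group, 0.0499 CPM in top and 0.0494 CPM in middle leaves.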
